A study of Mus musculus with 24 samples.

Results

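The core circadian clock genes described here are Arntl, Clock, Per1, Per2, Per3, Cry1, Nr1d1, Nr1d2, Dbp and Bhlhe41. They were found by their symbols, and each of the 10 matched 1 of the 55487 genes in the deposited table. All 10 had enough counts to be tested among the 18339 genes that were kept.

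Bulk RNA sequencing was done on kidneys of 24 males with XLAS (X-linked Alport syndrome), a hereditary kidney disease of the type IV collagen of the glomerular basement membrane. All mice were on the B6 background and were 15 weeks old. Every sample title gives Nbl1xCol4a5, so the label Col4a5 is shared by all of them. By label, 13 were HET (heterozygous) and 11 WT (wild type) for the gene Nbl1, which encodes a secreted antagonist of bone morphogenetic proteins. Both genotypes carried the disease, so there was no group without it. Of 2 labelled batches, batch 1 held 12 mice, 6 of each genotype, and batch 2 held 7 HET mice beside 5 WT mice. Each library is 1 mouse, and the replicate numbers used here follow accession order within a genotype. The sources used here do not give the time of day at which kidneys were taken.

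Circadian clocks are loops of transcription and translation that run in nearly every cell, including those of the renal tubule. ARNTL (also called BMAL1) pairs with CLOCK or with its relative NPAS2 and switches on the genes for the PER and CRY repressors, for the nuclear receptors NR1D1 and NR1D2 (REV-ERB alpha and beta), and for DBP and BHLHE41. The PER and CRY proteins then hold the activators back, and the REV-ERB receptors repress Arntl itself. In a cycling tissue Arntl transcripts therefore peak when those of Dbp and the REV-ERB genes are low. Each mouse here was sampled once, so the data hold no time course, and what can be read is which clock genes were high or low together from kidney to kidney.

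Depth ran from 29551337 to 33019871 expected counts per library in batch 1 and from 36380374 to 50746652 in batch 2. Kidney marker genes such as Lrp2 and Slc34a1 summed to between 12480 and 14770 CPM (counts scaled to a common library size) in every library, and adipose markers to between 1.34 and 99.2 CPM. Nbl1, the targeted gene, was at 3.86 to 4.89 CPM in 5 of the 6 HET libraries of batch 1 and at 6.996 to 7.78 CPM in 4 of its 6 WT libraries. The libraries labelled HET replicate 6 and WT replicate 2 held 9.24 and 3.62 CPM, against their labels. WT replicate 1 held 5.41 CPM, which lay between the ranges of the genotypes, and it is counted with them below among the 3 libraries against their labels. In batch 2 the 7 HET libraries held 4.22 to 7.82 CPM of Nbl1 and the 5 WT libraries 6.999 to 15.2 CPM. The highest HET value there belonged to HET replicate 8, which was above WT replicate 11 and whose title and library name give different animal numbers; it was matched by its library name. Without it 38 genes and 3 members passed in the slope on Arntl described below, and 0 genes between HET and WT over all mice. Groups are used as labelled, and results are also given without the 3 libraries of batch 1 that went against their labels where a call changed.

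Promoter stretches with letters that clock proteins are known to bind are shown first, because the loop is known to act through such sites. RefSeq promoter windows of 300 bases, from 250 before to 50 after a transcript's start on GRCm38.p6, held 9 of the 10 members, in 13 windows. In 11 of these 13 the last 20 bases lay in a GENCODE transcript of the gene. The windows of Per1 and Clock that held motifs lay inside the gene's annotated span. A member is named if any of its windows held the motif, whereas the percentages are shares of single windows. The E-box CACGTG, which ARNTL with CLOCK binds, was in the windows of Per1, Cry1 and Bhlhe41 and in 7.15% of all 32851 windows. The D-box TTATGTAA, which DBP and TEF bind, was in the window of Per3, with 2 copies, and in 0.938% of all windows. The half-site AGGTCA, which REV-ERB and ROR receptors bind, was in the windows of Arntl, Clock, Per1 and Nr1d2 and in 16.3% of all windows. The variant E-box CACGTT was in those of Cry1 and Nr1d1 and in 4.68% of windows, and the cAMP response element TGACGTCA was in no member's window and in 1.79% of windows. None of these motifs was in the window of Dbp, and Per2 had no window. Both strands were searched, and the matches are letters in a window, not measured binding. The stretches below read 5′ to 3′ on the strand of the gene, with the matched motif in capitals, and lie at chr7:113207530-113207559 on the plus strand for Arntl, chr14:18239131-18239230 on the minus strand for Nr1d2, chr4:151044816-151044915 on the minus strand for Per3, chr6:145865559-145865620 on the minus strand for Bhlhe41, and chr11:69098736-69098835 on the plus strand for Per1.
Arntl, REV-ERB and ROR half-site: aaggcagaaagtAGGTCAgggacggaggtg
Nr1d2, REV-ERB and ROR half-site: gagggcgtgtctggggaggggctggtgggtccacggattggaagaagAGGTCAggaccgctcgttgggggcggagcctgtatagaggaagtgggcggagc
Per3, D-boxes: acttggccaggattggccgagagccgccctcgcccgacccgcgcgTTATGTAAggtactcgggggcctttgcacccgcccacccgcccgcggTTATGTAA
Bhlhe41, E-box: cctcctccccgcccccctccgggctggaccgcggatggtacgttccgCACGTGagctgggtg
Per1, E-box: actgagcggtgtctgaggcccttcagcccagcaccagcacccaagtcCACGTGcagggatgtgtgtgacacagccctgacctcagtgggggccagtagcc

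Levels per transcript length, in deposited TPM, a length-scaled transcript abundance, put the REV-ERB genes at the top. In batch 2 the median was 31.6 TPM for Nr1d2, 24.02 for Nr1d1 and 17.2 for Clock. Nr1d2 was above Nr1d1 in 11 of 12 libraries, and Nr1d1 was above Clock in all 12. Arntl and Dbp followed at 11.1 and 10.2 TPM and could not be ordered, since Arntl was the higher in 6 of 12 libraries. Per1 and Per3, at 4.69 and 4.34 TPM, also changed places from kidney to kidney, with Per1 higher in 7 of 12. Per2, Cry1 and Bhlhe41 closed the order at 2.84, 2.10 and 0.61 TPM, and each step between them held in all 12 libraries. In batch 1 the top 3 were the same, at 23, 15.1 and 11.04 TPM, but Clock was above Dbp in only 7 of 12 libraries and Arntl, at 3.07 TPM, was below Per3 in 8 of 12. The ratio of TPM to CPM differed between the batches over all genes, with library medians of 0.242 to 0.299 in batch 1 and 0.553 to 0.605 in batch 2, so TPM is compared within a batch and CPM is used for the rest.

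**Figure D1:**
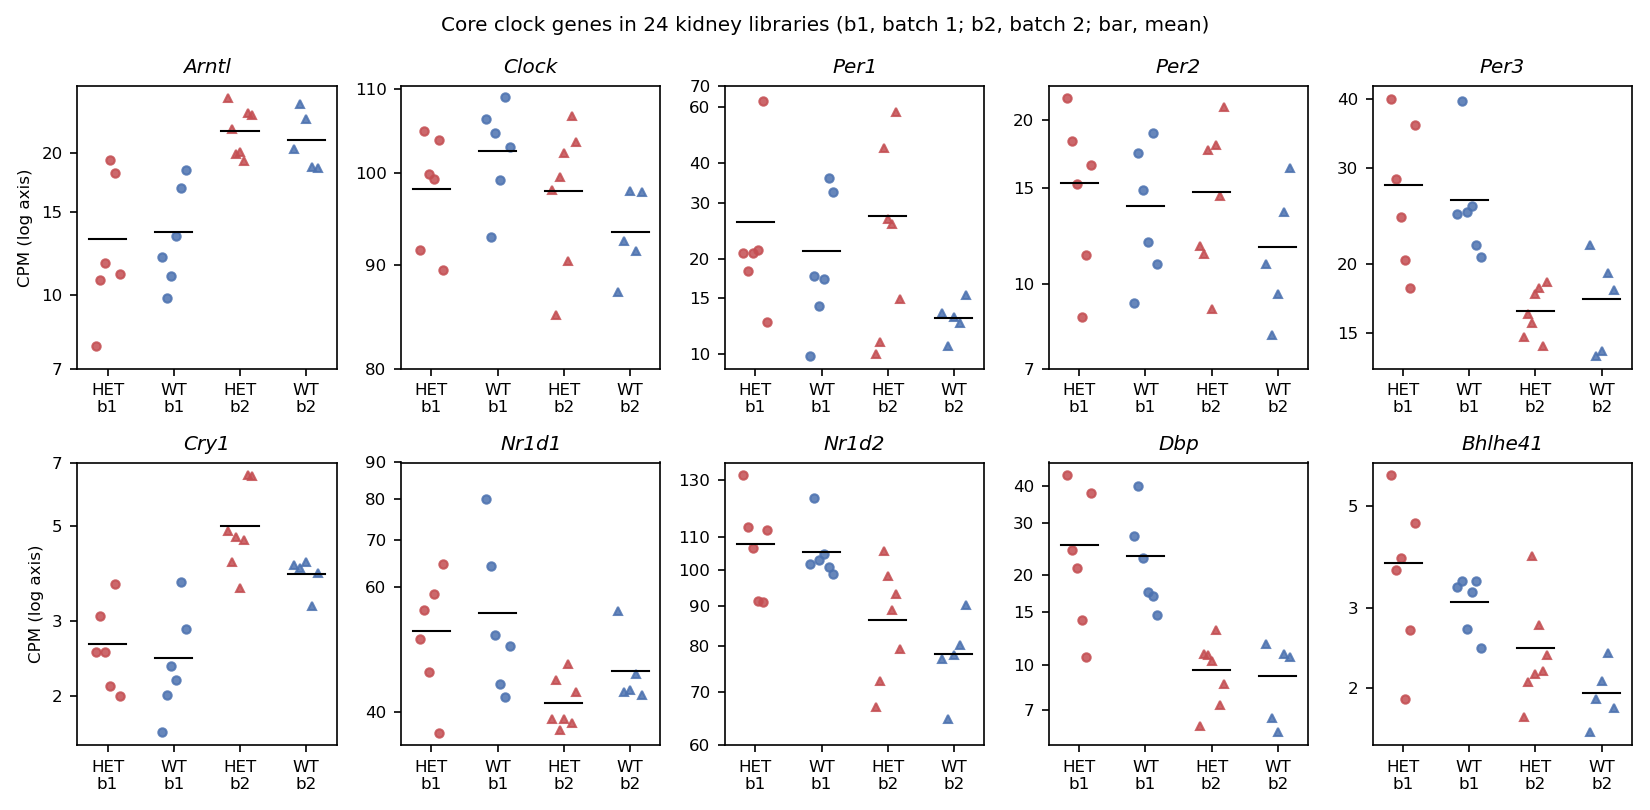
CPM of the 10 clock genes on log axes, one point per kidney, by genotype and batch (red, HET; blue, WT; circles, batch 1; triangles, batch 2), with a bar at each group's mean. Dbp spans 10.6 to 43.6 CPM in batch 1 and 5.90 to 13.1 CPM in batch 2, while Clock stays between 84.98 and 109 CPM.

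The members differed in how much they varied from mouse to mouse. Dbp and Per1 varied most. Over all mice the highest library was 7.39 times the lowest for Dbp and 6.34 times for Per1, with coefficients of variation of 64.4% and 64.8%, but Dbp also differed between the batches, and within each batch Per1 had the wider range. Clock varied least, at 1.28 times, and its 24 values lay between 84.98 and 109 CPM. Within batch 1 alone, where library depth was alike, the ratio was 4.12 for Dbp, 6.34 for Per1, 2.48 for Arntl and 1.22 for Clock. The least counted members were Cry1, with 54 to 282 counts per library, and Bhlhe41, with 61 to 201, so their values carry the widest counting error.

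Arntl (ENSMUSG00000055116, chromosome 7, 113207465 to 113314126 on GRCm38, plus strand) is the activator without which the loop stops. In batch 1 its level was 7.80, 10.8, 11.1, 11.7, 18.2 and 19.4 CPM in the 6 HET kidneys and 9.88, 10.98, 12.1, 13.4, 16.9 and 18.4 CPM in the 6 WT kidneys. Both genotypes thus held 4 kidneys at or below 13.4 CPM and 2 at or above 16.9 CPM. In batch 2 it ran from 19.2 through a median of 22.5 to 26.1 CPM in the HET kidneys and stood at 18.5, 18.7, 20.4, 23.5 and 25.4 CPM in the WT kidneys. This spread was used as the yardstick for the other genes: each gene was fitted on the log2 CPM of Arntl with batch and genotype in the model, and the slope is the log2 change of that gene per doubling of Arntl.

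By edgeR's quasi-likelihood test, 36 of the 18338 other genes had a slope with an adjusted p under 0.05, which is 0.196%, and 3 of the 9 other members were among them. All 3 were negative, as were 0.0327% of all genes: Dbp, Per3 and Nr1d2. Of the remaining 6 members, Bhlhe41, Per2 and Nr1d1 had negative slopes and Per1, Cry1 and Clock positive ones, and none of these passed. The median slope of the 9 members was -0.41, against 0.000576 over all genes tested.

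Dbp (ENSMUSG00000059824, chromosome 7, 45705088 to 45710203, plus strand) encodes a transcription factor that carries clock timing to output genes through D-boxes. In the 6 HET kidneys of batch 1 it was at 43.6, 24.3, 38.0, 21.2, 10.6 and 14.2 CPM, given in the order of rising Arntl. The WT kidneys of batch 1, in the same order, held 40.2, 22.9, 27.2, 17.6, 17.0 and 14.7 CPM. The 2 kidneys lowest in Arntl were thus the 2 highest in Dbp. The slope was -1.48 with a standard error of 0.17 (edgeR adjusted p = 5.04e-05), so Dbp was at 0.358 times its level for each doubling of Arntl, and by p it stood second among all 18338 genes.

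Per3 (ENSMUSG00000028957, chromosome 4, 151003652 to 151044665, minus strand), a PER family member whose promoter stretch above holds the D-boxes, was next by p among the members. Its level in batch 1 went from 18.1 through a median of 24.8 to 40.04 CPM, with the highest value in the HET kidney lowest in Arntl and the lowest in HET replicate 5. In batch 2 it lay between 13.6 and 21.6 CPM. The slope was -0.83 with a standard error of 0.11 (edgeR adjusted p = 0.000248).

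Nr1d2 (ENSMUSG00000021775, chromosome 14, 18204054 to 18239127, minus strand), the REV-ERB beta gene, moved over a narrower range. It was at 132 CPM in HET replicate 1, the kidney with the least Arntl, and at 91.1 and 91.3 CPM in HET replicates 5 and 4, the HET kidneys of batch 1 with the most. In batch 2 its values ran from 64.8 through a median of 79.9 to 106 CPM. The slope was -0.41 with a standard error of 0.09 (edgeR adjusted p = 0.0362). That call was lost when HET replicate 1, 11 or 13 or WT replicate 11 was left out, with adjusted p between 0.0502 and 0.0595, and without the 3 libraries whose Nbl1 level went against the label (adjusted p = 0.0580).

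**Figure D2:**
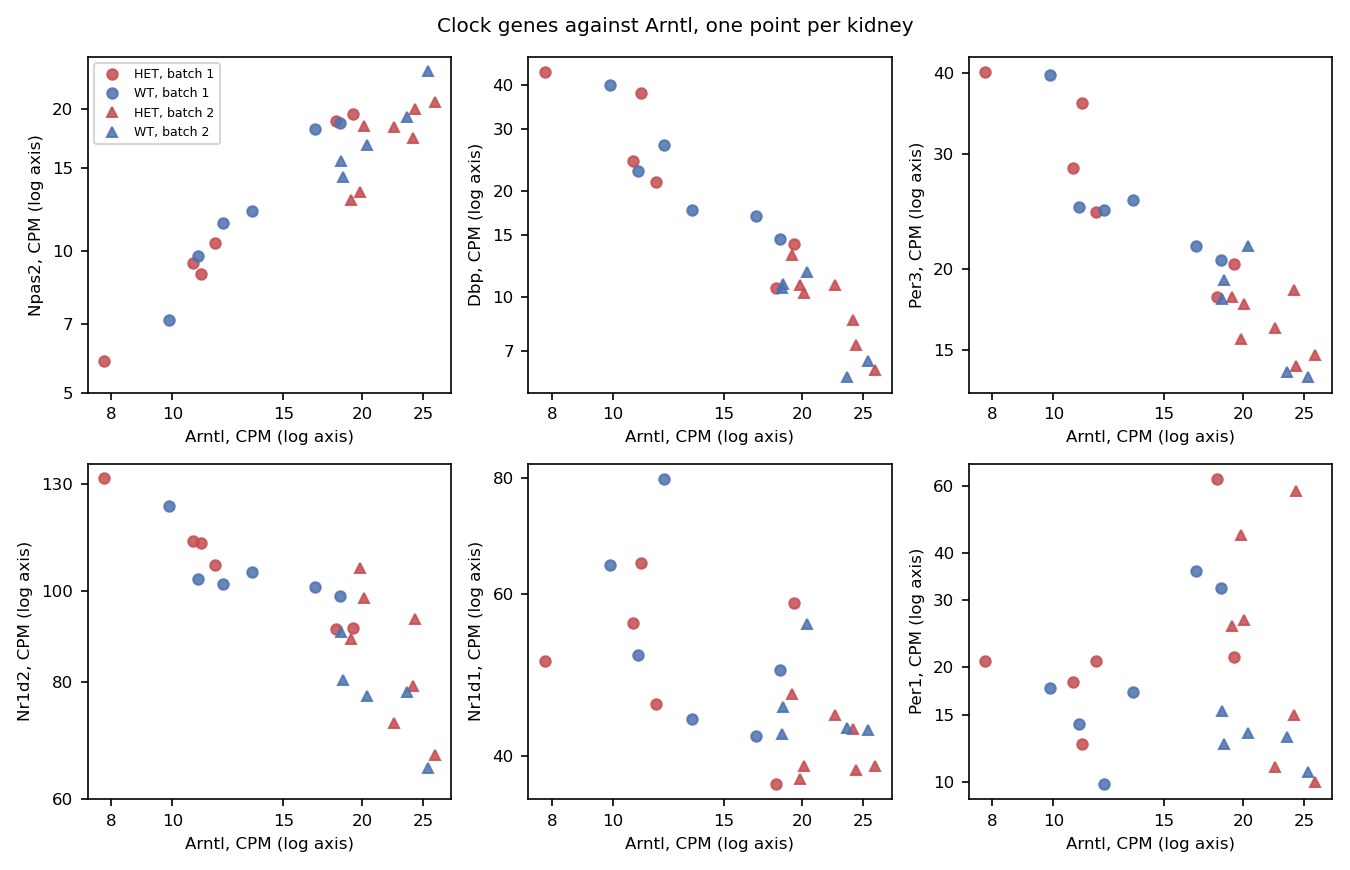
CPM of 6 clock genes against CPM of Arntl on log axes, one point per kidney (red, HET; blue, WT; circles, batch 1; triangles, batch 2). Npas2 rises with Arntl and Dbp, Per3 and Nr1d2 fall, whereas Nr1d1 and Per1 show no single line through both batches.

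The other repressor genes were looser. Bhlhe41 (ENSMUSG00000030256, chromosome 6, 145858243 to 145865558, minus strand), whose product competes with ARNTL and CLOCK for E-boxes, had a slope of -0.78 with a standard error of 0.18 (edgeR adjusted p = 0.0781). It passed when HET replicate 9 or WT replicate 5 was left out, with adjusted p of 0.0469 and 0.0321. Per2 (ENSMUSG00000055866, chromosome 1, 91415982 to 91459324, minus strand) had a slope of -0.65 ± 0.24 (standard error), with an edgeR adjusted p of 0.473. Nr1d1 (ENSMUSG00000020889, chromosome 11, 98767932 to 98775333, minus strand), the REV-ERB alpha gene, had a slope of -0.27, with an interval of -0.59 to 0.05. The difference between the slopes of the 2 REV-ERB genes was not tested.

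Cry1 and Per1 had slopes of the opposite sign. Cry1 (ENSMUSG00000020038, chromosome 10, 85131700 to 85185064, minus strand), the strongest repressor of the loop, had a slope of 0.47, with an interval of 0.09 to 0.85 and an edgeR adjusted p of 0.505. Per1 (ENSMUSG00000020893, chromosome 11, 69095217 to 69109960, plus strand) had a slope of 0.95, with an interval of -0.04 to 1.95. Its slope was 1.18 in batch 1 and -1.23 in batch 2. The difference between those slopes, -2.10, had an interval of -4.91 to 0.70 and an edgeR adjusted p of 0.712. Clock (ENSMUSG00000029238, chromosome 5, 76209868 to 76304792, minus strand), the partner of ARNTL, had a slope of 0.12, with an interval of -0.01 to 0.24.

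**Figure D3:**
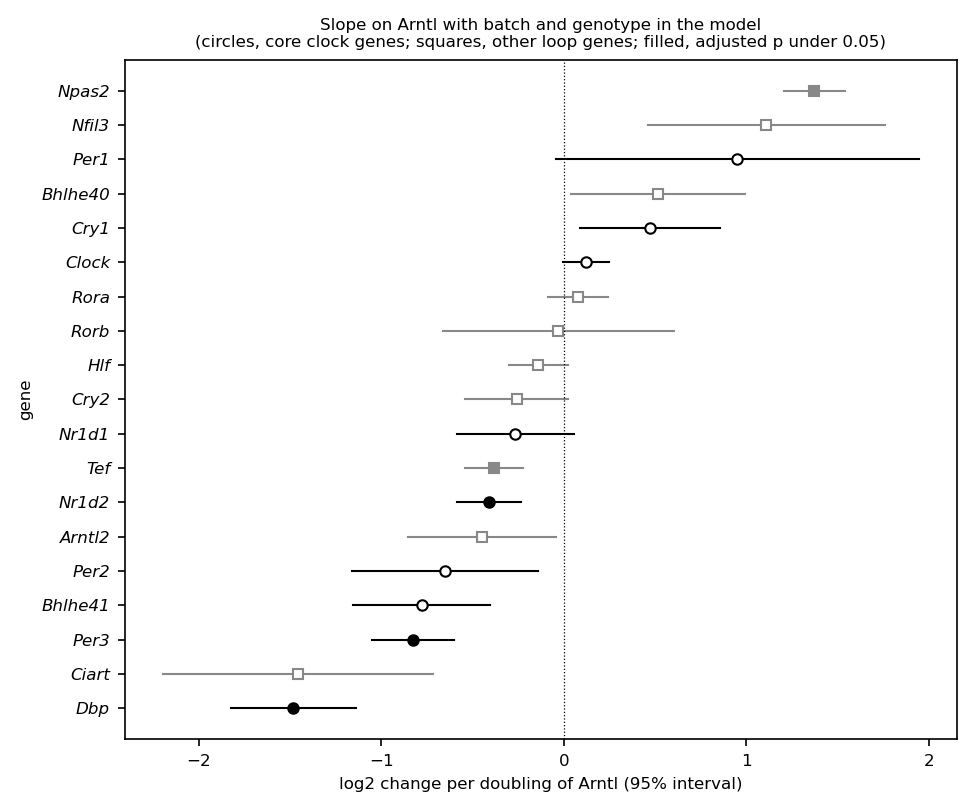
Slope of each gene on Arntl (log2 change per doubling of Arntl, with 95% intervals) for 9 core clock genes (circles) and 10 of the 11 other loop genes (squares). Filled marks have an adjusted p under 0.05: Npas2 at 1.37 above 0, and Tef, Nr1d2, Per3 and Dbp below 0.

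The same slopes were fitted within each batch on the same genes. In batch 1, 22 genes passed (0.12%), among them Nr1d2 (-0.36, edgeR adjusted p = 0.00613) and Per3 (-0.84, adjusted p = 0.0290). Dbp, at -1.45, had an adjusted p of 0.0506 there. When the genes were filtered within batch 1 alone, 33 genes passed and Dbp was among the 3 members that did, with an adjusted p of 0.0480, so that its call in batch 1 depends on the filter. In batch 2, where Arntl spanned only 18.5 to 26.1 CPM, edgeR called 0 genes (0%), and an unadjusted p under 0.05 was found for 1471 (8.02%). Dbp had the smallest p of all genes in batch 2 (slope -1.92 ± 0.31, standard error, adjusted p = 0.143). The slopes of Per3 and Nr1d2 in batch 2 were -0.77 and -0.87, with adjusted p of 0.607 and 0.499. For a difference in slope between the batches edgeR called 0 genes. The smallest adjusted p was 0.451, and before adjustment 1378 genes (7.51%) were under 0.05. The narrow span of Arntl in batch 2 limits what that test could detect. Between HET and WT edgeR also called 0 genes for a difference in slope. The smallest adjusted p there was 0.278, and before adjustment 1074 genes (5.86%) were under 0.05. For Dbp, Per3 and Nr1d2 the HET minus WT difference in slope was 0.21, 0.04 and 0.10, with intervals of -0.24 to 0.66, -0.26 to 0.34 and -0.14 to 0.33.

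Pairs of members were then compared directly, by the correlation of log2 CPM across the 24 kidneys after the batch means were removed. Of 45 pairs, 22 had a permutation p under 0.05 after Benjamini-Hochberg adjustment over the pairs, 13 of them positive and 9 negative. The share among pairs of other genes is not given here, so this count has no background beside it. Arntl and Dbp opposed each other most closely, with Pearson's r of -0.88 and Spearman's rho of -0.81 (n = 24, adjusted permutation p = 0.00015 and 0.000225). Without the 2 kidneys farthest from the median of Arntl, r was -0.86. In batch 1 r was -0.90 and in batch 2 it was -0.85. Arntl and Per3 gave r of -0.84 and rho of -0.80 (permutation, adjusted p = 0.000337 for each), with r of -0.79 without the 2 farthest kidneys, -0.88 in batch 1 and -0.68 in batch 2. Dbp and Per3 rose and fell together, with r of 0.92 and rho of 0.86 (adjusted permutation p = 0.00015 and 0.000225), 0.96 in batch 1 and 0.79 in batch 2.

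The pairs were also read within each batch of 12 kidneys. In batch 1, 19 of 45 pairs passed, and Dbp, Per3, Nr1d2 and Bhlhe41 were joined to each other by r of 0.76 to 0.96, all passing. In batch 2, 3 pairs passed by r: Arntl with Dbp (adjusted permutation p = 0.0247), Dbp with Per3 (r = 0.79, adjusted permutation p = 0.0447) and Per1 with Nr1d2 (r = 0.85, adjusted permutation p = 0.00765). By rho, Per1 with Nr1d2 passed there (0.92, adjusted permutation p = 0.0063), whereas Arntl with Dbp (-0.72, adjusted permutation p = 0.122) and Dbp with Per3 (0.77, adjusted permutation p = 0.0747) did not. The difference in r between the batches was not tested. For Per1 with Nr1d2, r in batch 1 was -0.41. The sign of r was the same in both batches for 32 of 45 pairs. For this count and for the pairs passing within a batch, the share among pairs of other genes is not given here either. The REV-ERB genes, which share their targets, had an r near 0 with each other over all mice (r = 0.03, rho = -0.04, adjusted permutation p = 0.916 and 0.879).

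Nr1d1 went with Dbp (r = 0.56, rho = 0.52, adjusted permutation p = 0.0274 and 0.0406), with r of 0.60 in batch 1 and 0.43 in batch 2, neither of which passed. With Per3 its r was 0.50 and rho 0.48 (adjusted permutation p = 0.0664 and 0.0613). Nr1d1 ran against Cry1 and Per1. For Cry1 and Nr1d1 r was -0.63 and rho -0.57 (adjusted permutation p = 0.00521 and 0.0255), with r of -0.59 without the 2 farthest kidneys, -0.81 in batch 1 and -0.30 in batch 2. For Per1 and Nr1d1 r was -0.61 and rho -0.52 (adjusted permutation p = 0.00456 and 0.0275), with r of -0.80 in batch 1 and -0.44 in batch 2. Per1 and Cry1 went together, with r of 0.64 and rho of 0.54 (adjusted permutation p = 0.00517 and 0.0275), 0.86 in batch 1 and 0.43 in batch 2. Within batch 2 none of these 3 pairs passed.

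**Figure D4:**
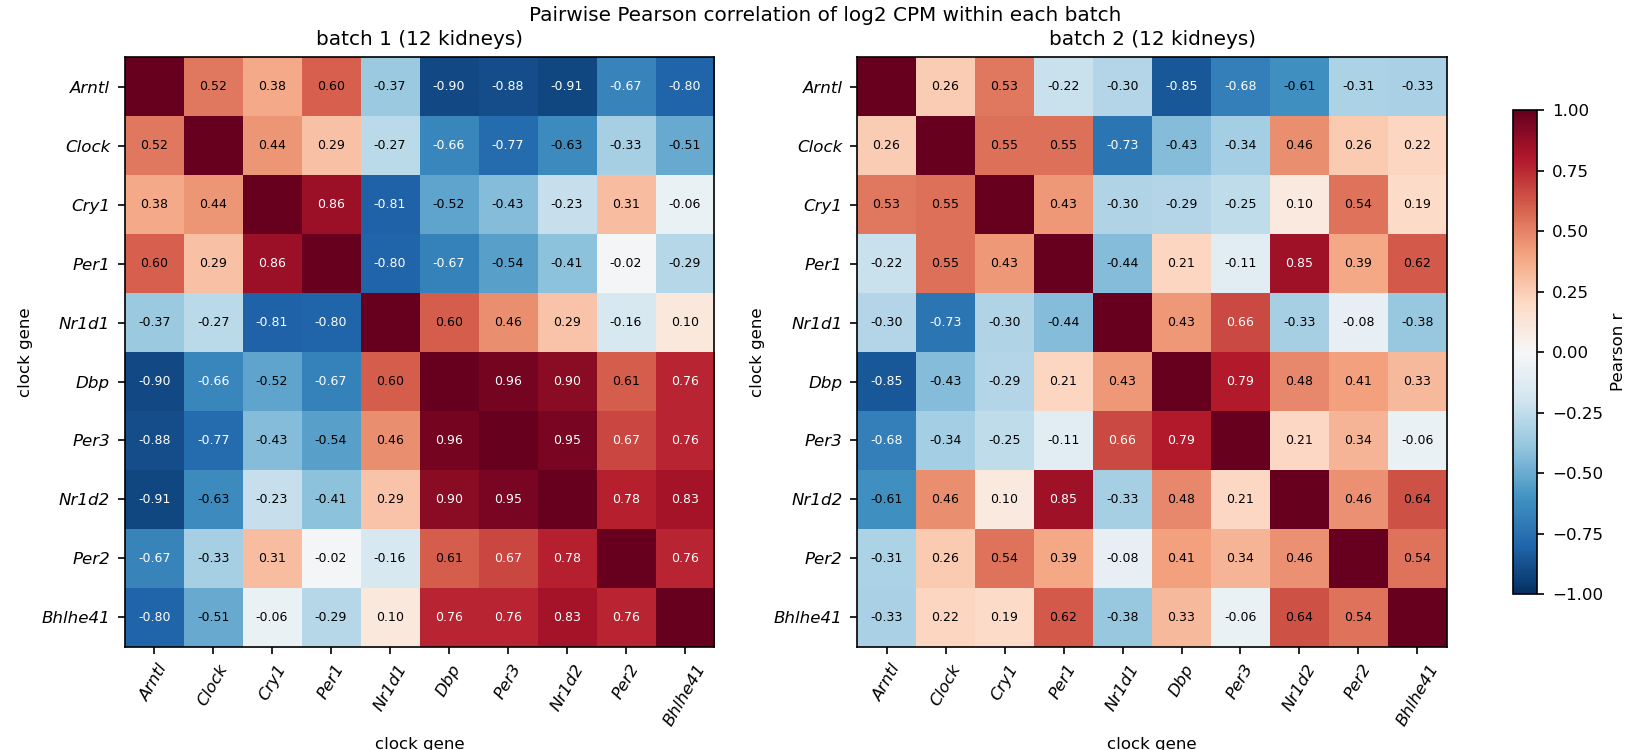
Pearson's r of log2 CPM for every pair of the 10 clock genes, in the 12 kidneys of batch 1 (left) and the 12 of batch 2 (right), with each value printed. Arntl against Dbp is at -0.90 and -0.85, and Per1 against Nr1d2 changes from -0.41 to 0.85.

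Because the Arntl values of batch 1 left a gap between 13.4 and 16.9 CPM, the relation was also read among the 8 kidneys below it. There r with Arntl was -0.79 for Dbp (rho -0.74), -0.77 for Per3 (rho -0.74) and -0.89 for Nr1d2 (rho -0.81), with exact permutation p of 0.00769, 0.00853 and 0.00241 for r, unadjusted for these 4 genes. Npas2 gave r of 0.97 and rho of 0.93 (exact permutation p = 9.92e-05 and 0.00223). The negative r was thus present without the 4 kidneys above the gap, in kidneys chosen by their Arntl value. HET replicate 1 and WT replicate 2, the lowest of them in Arntl, were the highest in Dbp, Per3 and Nr1d2. How far r rests on these kidneys was not tested. The kidneys below the gap include HET replicate 6, WT replicate 1 and WT replicate 2, whose Nbl1 level went against the label.

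With Dbp as the yardstick instead, 31 of 18338 genes passed (0.169%), 2 of them members. Per3 rose by 0.54 on the log2 scale per doubling of Dbp (edgeR adjusted p = 1.82e-07) and Arntl fell by 0.53 (adjusted p = 5.65e-06). Of the other loop genes, Npas2 was at -0.75 (adjusted p = 5.65e-06) and Tef at 0.26 (adjusted p = 0.00140). Nr1d2, at 0.23, did not pass (adjusted p = 0.0902). This fit uses the same libraries as the slope on Arntl and is no separate support for it.

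Among the 11 other loop genes, 2 passed in the slope on Arntl. Npas2, the relative of CLOCK that can replace it as the partner of ARNTL, had the smallest p of all 18338 genes, with a slope of 1.37 and a standard error of 0.08 (edgeR adjusted p = 5.48e-12). Its level went from 5.82 CPM in the kidney lowest in Arntl to 23.98 CPM in WT replicate 8. Tef, a D-box factor related to DBP, had a slope of -0.38 (adjusted p = 0.0291). Ciart, a repressor of the loop, was at -1.46 with 10 to 73 counts per library, and did not pass (adjusted p = 0.107). None of the 12 clock kinase and ubiquitin ligase genes passed, nor any of the 11 clock output genes. Among the output genes the smallest p belonged to Wee1, at -0.49 (adjusted p = 0.286).

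The genes outside the members that moved with Arntl at the smallest p were, after Npas2, Rhobtb1, Ppp1r15a, Rasd1, Fos, Ppard, Zfp36, Ndrg1, Slc16a1 and Gdf15, with slopes from 0.44 for Ndrg1 to 4.64 for Fos and adjusted p up to 0.00191. Against Arntl, after Tef, Cpeb3 passed at -0.39 (edgeR adjusted p = 0.0329). The next by p did not pass: A930033H14Rik, Vnn1, 4632415L05Rik, Zfp382, Impg2, Gstp2, Atg14 and Agt had slopes between -0.92 and -0.25 and adjusted p of 0.0526 to 0.147.

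Immediate early genes, which are switched on within minutes by many stimuli, also moved with Arntl over all mice. Of the 11 tested of 12 listed, all 11 had a positive slope, with a median of 2.58, and 7 passed: Fos, Junb, Ier2, Egr1, Dusp1, Egr2 and Nr4a1, with slopes of 1.78 to 4.64. Fos was at 0.520 to 2.45 CPM in the 8 kidneys of batch 1 below the Arntl gap and at 12.9, 38.4, 51.3 and 78.3 CPM in the 4 above it. In batch 2 it lay between 1.34 and 9.64 CPM. The median slope of the list was 2.94 in batch 1, where 1 of its genes passed, and 0.71 in batch 2, where 0 did. Arntl and the mean log2 CPM of the list gave r of 0.81 and rho of 0.52 in batch 1. In batch 2 r was 0.30, and 0.04 without the 2 kidneys farthest in the list mean. The permutation p for r, adjusted over 20 relations, was 0.00765 in batch 1 and 0.445 in batch 2. The list's summed level was 1088, 571 and 491 CPM in HET replicate 5, HET replicate 4 and WT replicate 6, and 66.3 to 341 CPM in all other libraries. Without these 3 libraries the slopes were -1.51 for Dbp, -0.87 for Per3 and -0.48 for Nr1d2, with edgeR adjusted p of 0.0260, 0.132 and 0.444, and only Npas2 and Dbp passed. With the mean log2 CPM of the list as a covariate the slopes were -1.39, -0.84 and -0.67, with adjusted p of 0.119, 0.168 and 0.0331, and only Npas2 and Nr1d2 passed. The slope of Per1 then turned from 0.95 to -1.23 and that of Nr1d1 from -0.27 to 0.10.

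Adipose markers had a higher median slope on Arntl than the immediate early list, although none passed. All 5 (Adipoq, Plin1, Cidec, Lep and Cfd) were positive, with a median slope of 3.30 over all mice, 3.37 in batch 1 and 3.50 in batch 2, and on Dbp all 5 were negative, with a median of -1.30. Their summed level was 1.34 CPM in HET replicate 1, the kidney lowest in Arntl, and 76.4 and 59.7 CPM in HET replicates 5 and 4. Other kidneys of batch 1 went the other way. WT replicate 5, above the Arntl gap, held 1.72 CPM, while WT replicate 1 and HET replicate 6, below it, held 61.5 and 25.8 CPM. With the mean log2 CPM of the list as a covariate, 33 genes passed, and Dbp and Per3 among them had slopes of -1.59 and -0.89 (edgeR adjusted p = 0.000841 and 0.00231). Nr1d2, at -0.27, did not pass then (adjusted p = 0.286).

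Per1, whose promoter is known to respond directly to glucocorticoids as well as to ARNTL and CLOCK, followed the mean log2 CPM of 8 glucocorticoid responsive genes. Pearson's r was 0.90 and rho 0.80 (n = 24, permutation p adjusted over 20 relations = 0.0002 for r), with r of 0.94 in batch 1 and 0.87 in batch 2. Without the 2 kidneys farthest from the median of the list mean r was 0.84. In batch 2 without its 2 kidneys farthest in the list mean r was 0.47, so there the relation rests on those kidneys. Per1 stood at 62.6 CPM in HET replicate 5 and at 58.1 and 44.7 CPM in HET replicates 12 and 9, while its median over all kidneys was 17.5 CPM. Per1 also followed the immediate early list (r = 0.72, rho = 0.58, adjusted permutation p = 0.0003 for r), with r of 0.87 in batch 1 and 0.69 in batch 2, where it did not pass. The part of each list was not tested. Cry1 and Clock rose with the glucocorticoid list as well, with r of 0.68 and 0.56 (adjusted permutation p = 0.0032 and 0.0153). Nr1d1 and Per3 ran against it, with r of -0.66 and -0.51 (adjusted permutation p = 0.00107 and 0.0165).

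Between the batches 11645 of 18339 genes were called (63.5%), so calls among the members, 7 of 10, were near the share of all genes. Of all genes 32.6% were higher and 30.9% lower in batch 2. Arntl and Cry1 were higher, by 1.64-fold and 1.73-fold, with edgeR adjusted p of 4.35e-05 and 1.71e-06. Dbp, Per3, Bhlhe41, Nr1d2 and Nr1d1 were lower, at 0.385, 0.621, 0.643, 0.773 and 0.808 times their level in batch 1, with adjusted p of 0.00857 or less. Clock, Per1 and Per2 did not pass. The ranges of all 10 members overlapped between the batches, although 9 of the 12 batch 2 libraries were above every batch 1 library in Arntl and 10 were in Cry1. The share of all genes with overlapping ranges is not given here, so whether this is usual cannot be read. Depth, the ratio of TPM to CPM and the clock levels all differ between the batches, and their parts cannot be told apart. On the log2(TPM + 1) scale, where the median gene was 0.69 higher in batch 2, limma called 17035 genes, 15127 higher and 1908 lower, and 6 members, all higher. None of the 5 lower calls remained, and Dbp was at -0.07 (limma adjusted p = 0.698). Per3, Nr1d1, Nr1d2 and Bhlhe41 were higher in place of lower, at 0.21, 0.59, 0.41 and 0.06, which is below that median. Clock, Per1 and Per2, which did not pass by CPM, were below that median too, so lying below it does not set these 4 apart. Bhlhe41 had a median of 0.545 TPM in batch 1, where the added 1 holds any log2 difference down.

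Of the other loop genes 5 of 11 were called between batches. Among them, Nfil3 and Npas2 were higher by 0.74 and 0.49 on the log2 scale, and Rora and Rorb were lower, at -0.13 and -0.47. Of the clock kinase and ligase genes 10 of 12 were called, with Nono, Csnk1d, Timeless, Csnk1e and Fbxw11 higher by 0.12 to 0.57 and Gsk3b, Csnk1a1, Prkaa2, Btrc and Fbxl21 lower at -0.44 to -0.22. Of the clock output genes Por, Avpr2, Nampt and Scnn1a were higher by 0.17 to 0.34, and Gpcpd1 and Coq10b were lower at -0.35 and -0.27.

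Between HET and WT no clock gene was called. Over all mice with batch in the model, edgeR called 0 of 18339 genes (0%); before adjustment 755 genes (4.12%) were under 0.05, and after it the smallest p was 0.997. DESeq2 and limma voom also called 0 genes, and before adjustment 811 and 805 were under 0.05. Of the 10 members 9 had a positive log2 fold change, with a median of 0.09 against 0.00982 over all genes. With Arntl as a covariate 7 were positive. The share of positive values among all genes is not given here, so this count has no background beside it. The immediate early list leaned the same way, with 11 of 11 positive and a median of 0.87, as did the glucocorticoid list, with 7 of 8 and a median of 0.22 (8 of 8 in batch 2), and no gene of either passed. Their part in the members' values was not tested. Arntl and Clock differed least, at 0.01 (interval -0.26 to 0.28) and 0.00171 (interval -0.08 to 0.08). Per1, Bhlhe41 and Cry1 had the largest values, 0.67, 0.30 and 0.25, with intervals of -0.01 to 1.35, 0.01 to 0.59 and -0.000975 to 0.50 and adjusted p of 0.997. For Dbp the interval was -0.36 to 0.56, which leaves room for a change of up to 1.48-fold.

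In batch 1 edgeR called 0 genes (0%) between HET and WT; the smallest adjusted p was 0.166, and before adjustment 509 genes (2.78%) were under 0.05. The members lay between -0.08 for Nr1d1 and 0.30 for Per1, each with an interval that covered 0. In batch 2, 1 gene was called (0.00545%), Htr6, named here after its value was seen, and no member. Cry1 stood at 3.59 to 6.55 CPM in the 7 HET kidneys and at 3.25, 3.88, 3.98, 4.05 and 4.12 CPM in the 5 WT kidneys, so that 6 HET kidneys were above every WT kidney. Its log2 fold change was 0.36, with an exact two-sided permutation p of 0.0303 (0.606 adjusted over 20 such tests) and an edgeR adjusted p of 0.579. Per1 ran from 9.98 to 58.1 CPM in HET and from 10.6 to 15.3 CPM in WT, with a log2 fold change of 1.04, an exact permutation p of 0.111 and an edgeR adjusted p of 0.595. HET replicates 9 to 12 were above all WT kidneys and HET replicate 7 was below them. Nr1d1 was lower at -0.17 (edgeR adjusted p = 0.587), and 4 of 7 HET kidneys were below every WT kidney. No gene passed for the interaction of genotype with batch (edgeR called 0, or 0%; the smallest adjusted p was 0.377, and before adjustment 1504 genes, 8.2%, were under 0.05).

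**Figure D5:**
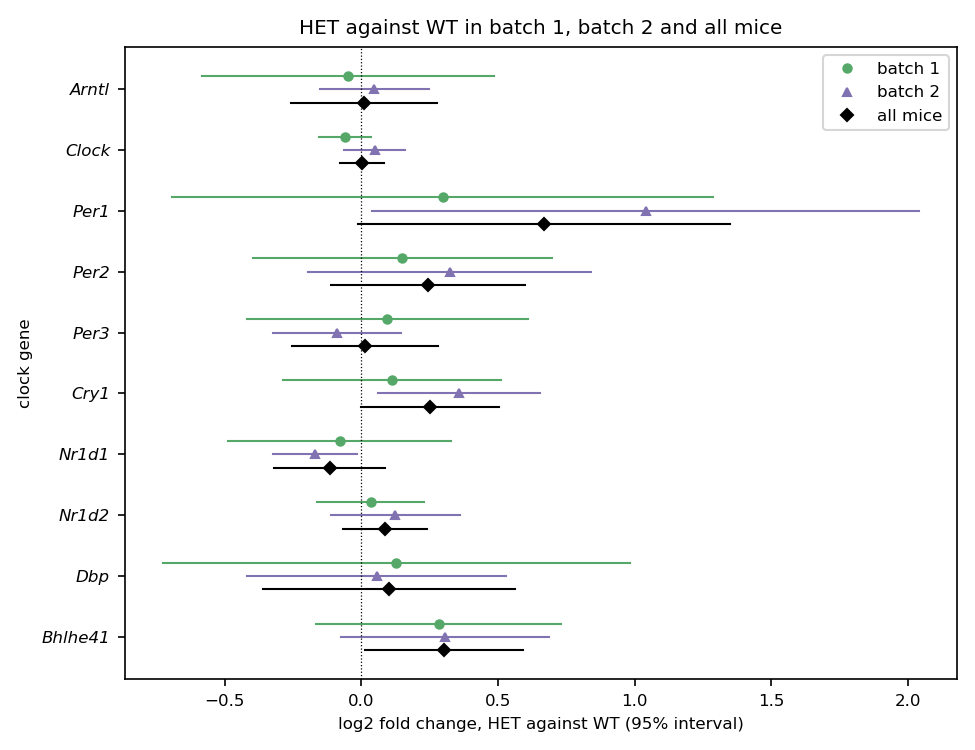
Log2 fold change of HET against WT with 95% intervals for the 10 clock genes, in batch 1 (circles), batch 2 (triangles) and all mice (diamonds). The widest intervals belong to Per1, whose values are 0.30, 1.04 and 0.67, and the all-mice interval of Bhlhe41, 0.01 to 0.59, lies above 0.

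In simulated counts the HET against WT test recovered 98% of genes changed 1.5-fold but 30% of those given the smallest change simulated, which was below 1.5-fold. The slope test recovered 56% of genes with a 1.5-fold change per doubling and 8% of those with that smallest change, so small differences could be missed. Every simulated gene was given the same dispersion. Recovery for members that varied widely from mouse to mouse, such as Dbp and Per1, is therefore not known from it, and larger differences in them could be missed too. Some members share exonic bases with a gene on the opposite strand: Nr1d1 with Thra (263 bases), Dbp with Sphk2 (539 bases) and Bhlhe41 with Gm43909 (1280 bases). The sources used here do not give the strand setting of the counting, so reads of these pairs cannot be told apart. In bulk kidney, fewer cells expressing a gene and less RNA per cell cannot be told apart either.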

How the data were processed

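The authors deposited 1 table with expected counts, TPM and FPKM for each library; fastp, STAR, featureCounts and the build GRCm38 (mm10) are named, per the submitters' processing notes. The sources used here give no versions and no strand setting. Of each library's deposited expected counts, 11.8% to 15.4% were fractional, and all were rounded. TPM as deposited by the authors was used for levels and, as log2(TPM + 1), in alternatives; the FPKM values the authors deposited were not used. No per-sample column lacked a sample (0 columns).

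Genes were kept by filterByExpr of edgeR 4.0.16 (R 4.3.3) with the genotype groups and a minimum count of 10, and scaled by TMM. edgeR's quasi-likelihood test with robust estimates and Benjamini-Hochberg adjustment over all genes was used throughout, with a threshold of 0.05. CPM uses TMM library sizes, and log2 CPM a prior count of 2. Intervals are 95%. The main comparisons were genotype with batch as a covariate, genotype within each batch, batch with genotype as a covariate, and the slope on Arntl. Correlations used 100000 permutations of the kidneys (within batch where batch means were removed) in the main values and fewer in the alternatives. Each r was also taken without the 2 kidneys farthest from the median of the first gene of the pair. For relations with a list, the 2 kidneys farthest from the median of the list mean were left out. The smallest p these permutations can give is 1e-05.

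Some choices were made after values had been seen. The filter was first run with the design matrix (18840 genes) and then set to the genotype groups. Fits within a batch were first run on genes filtered in that batch alone (18494 genes in batch 1, 17955 in batch 2) and then set to the genes kept over all mice, which moved the call of Dbp in batch 1. Both versions are reported. The immediate early and adipose covariates and the left-out libraries, the slope differences between batches and genotypes, the kidneys below the Arntl gap, the relations with the immediate early and glucocorticoid lists, and the motifs and sequences shown were also chosen after seeing values.

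The members and gene lists were chosen with earlier results of these data known. The text names all members, the 10 other genes of smallest p in each direction of the slope with a mean of at least 1 CPM, and, of the other clock lists, every gene past the threshold, or otherwise the first by p, except 2 genes that are not reported here. Each library is a separate mouse by its labels, so p-values measure the spread between mice. Alternatives were RLE size factors, no filter, DESeq2 1.42.0, limma 3.58.1 (voom, and limma-trend on log2 TPM), other pseudocounts and each library left out. The tests were tested on simulated data. Gene positions and overlaps came from GENCODE M21 (55141 of 55487 identifiers found) and promoters from RefSeq on GRCm38.p6; figures were drawn with matplotlib 3.10.9.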

Additional observations from a re-analysis of the deposited data

Results flagged for a closer look

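Within each batch and genotype, the highest or lowest library of each member was compared with its nearest neighbour in log2 CPM. Of 40 groups, 5 held a value set apart by a gap that is large for the group's range. In independent groups chance alone flags about 1 in 20. These groups share the same mice and hold correlated genes, so they are not independent and no excess over that rate can be read. Per1 in HET replicate 5 was 62.6 CPM, against 21.2 CPM in the next of 6 HET libraries of batch 1. WT replicate 2 of batch 1 was the highest of 6 in both Per3, at 39.7 CPM against 25.5, and Nr1d2, at 123 CPM against 105, and it was also the WT kidney lowest in Arntl and one of the 3 whose Nbl1 level went against the label. In batch 2, Cry1 in WT replicate 10 was 3.25 CPM, below 3.88 CPM in the next of 5 WT libraries, and Nr1d1 in WT replicate 7 was 55.6 CPM, above 45.3 CPM. No member passed for the interaction of genotype with batch, or for a difference in its slope on Arntl between batches or between genotypes.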

How the results depend on the processing

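No paired analysis was possible because the replicate numbers follow the order of deposition and pair no mice. For the slope on Arntl, the 36 genes and 3 members became 111 genes with DESeq2, 500 on log2(TPM + 1), where the median slope moved to 0.15 and the members called were Dbp (-1.13) and Clock (0.26, positive) but not Per3 or Nr1d2, 20 without the 3 libraries whose Nbl1 level went against the label, 22 in batch 1, 0 genes and 0 members in batch 2 under either filter, and 2 genes and 1 member both with the immediate early covariate and without the 3 libraries highest in that list. With 1 library left out, 22 to 44 genes and 2 to 4 members passed. With the design matrix filter the counts were 37 genes and 3 members. The 22 correlated pairs became 14 without the 3 libraries highest in immediate early genes, and 17 to 25 with 1 library left out. The cause was not tested.

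HET against WT over all mice stayed at 0 genes with 1 library left out in turn, was 2 genes (Htr6 and Nbl1, the latter having picked out the libraries) without the 3 libraries, and no member passed in any setting of that comparison. In batch 1 it was 1 gene with DESeq2 and 2 without the 3 libraries, and 0 with each library left out; in batch 2 it was 26 with DESeq2 and 1 to 3 with each left out. Signs turned for values near 0: Arntl to -0.00147 without a filter, -0.065 on log2(TPM + 1) and -0.0325 without the 3 libraries; Clock to -0.00871, -0.0392 and -0.000113; Per3 to -0.0891 on log2(TPM + 1) and -0.00119 with Arntl as a covariate. With 1 library left out, Arntl ranged from -0.0649 to 0.0527, Clock from -0.0193 to 0.0145, Per3 from -0.0666 to 0.0748 and Dbp from -0.0258 to 0.204.

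Between batches, 11299 to 11688 genes and 7 to 8 members passed with 1 library left out. On log2(TPM + 1), Clock was 0.64, Per1 0.25, Per2 0.45, Per3 0.21, Nr1d1 0.59, Nr1d2 0.41 and Bhlhe41 0.0645 higher in batch 2. In the slope, Per1 turned to -1.23 in batch 2, to -1.21 there with the batch's own filter and to -1.23 with the immediate early covariate, and Nr1d1 to 0.10 with that covariate. The low counts of Cry1 and Bhlhe41 and the narrow span of Arntl in batch 2 limit what could be detected.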

Other observations

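In batch 2, Clock followed the mean log2 CPM of the immediate early list (r = 0.83, rho = 0.89, n = 12, permutation p adjusted over 20 relations = 0.0052 for r). Without the 2 kidneys farthest in the list mean r was 0.82. In batch 1 the same r was 0.22. The difference between the batches was not tested.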
